A study of Mus musculus with 3 samples.

Results

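The genes described here are 9 transcription factors that mark the identity of sensory neurons: Isl1, Isl2, Pou4f1, Phox2a, Tlx3, Shox2, Prdm12, Onecut1 and Onecut2. They were chosen by name among the 32285 features of the deposited matrices, and all 9 are present there. Single-cell RNA sequencing was done on otic vesicles, the epithelial sacs that give rise to the inner ear and to its ganglion, pooled from mouse embryos at E10.5 and dissociated. One library, labelled CD, came from embryos heterozygous for Sox9 Y440X (Sox9Y440X/+), a change written as a stop codon in SOX9, a transcription factor, and 2 libraries (WT replicates 1 and 2) came from wild type embryos. The embryo carries the Sox9 change in every cell, and the number of embryos in each pool is not given in the sources used here. With 1 CD library, genotype and pool cannot be told apart.

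Ganglion neurons of the inner ear leave the otic epithelium as neuroblasts that express Neurog1 and then Neurod1, and begin to make axonal proteins such as STMN2 as they differentiate. LIM homeodomain factors (ISL1 and ISL2), the POU factor POU4F1 and homeobox or cut-homeodomain factors (TLX3, SHOX2, PHOX2A, ONECUT1 and ONECUT2) are switched on in partly overlapping sets of cranial and spinal sensory neurons, where they set receptor and transmitter genes. PRDM12, a PR-domain protein, is known for its role in neurons that sense pain. PHOX2A is known from visceral neurons, which include those of the epibranchial ganglia beside the ear.

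Of 26130 cells with at least 1000 genes and at most 10% mitochondrial UMIs (unique molecular identifiers, 1 per captured transcript), 2576 were taken as neurons because they held at least 2 UMIs of Neurod1 and Stmn2 together and none of Epcam. This gave 876 neurons in CD replicate 1, 608 in WT replicate 1 and 1092 in WT replicate 2, or 10.2%, 9.26% and 9.91% of the cells kept. The neurons were split by their Stmn2 count. Cells with no Stmn2 UMI, which therefore held at least 2 of Neurod1, numbered 109, 94 and 136. Cells with 1 to 2 Stmn2 UMIs numbered 138, 91 and 319, and cells with 3 or more numbered 629, 423 and 637. Otic cells (an Epcam UMI and at least 2 of Fbxo2, Hmx2, Hmx3 and Pax2) numbered 2778, 2537 and 4083. Values in threes below follow the order CD replicate 1, WT replicate 1, WT replicate 2 unless stated otherwise.

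The label was checked on 12 pan-neuronal genes that the gate does not use (Tubb3, Nefl, Gap43 and others). They summed to 6803, 6984 and 6443 CPM in neurons and to 563, 503 and 638 CPM in otic cells, with 1506, 1760 and 1193 CPM in neurons without Stmn2, where Prph was at 0. Depth differed between the groups of cells. Neurons without Stmn2 had medians of 8796, 11144 and 8020 UMIs, those with 3 or more had 17094, 17036 and 15120, and otic cells had 22616, 25431 and 18752. Libraries held 157373393 to 202584468 UMIs over 8330 to 16649 barcodes, and pairs of libraries shared 28 to 55 cell barcodes, with 1 in all of them. Sox9, the mutated gene, stood at 688, 409 and 338 CPM in otic cells, higher in CD (log2 fold change 0.83, SE 0.15; adjusted p = 0.125 in edgeR and 9.2e-04 in DESeq2). A 3' read counts both alleles, so this does not check the genotype. Levels are CPM, the UMIs of a gene scaled to counts per 1e6 UMIs of the summed cells, and are compared between groups of cells and not between genes. Shares of cells with a UMI are given after each cell was thinned to 5000 UMIs, leaving out shallower cells. Intervals cover counting error only.

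Promoter sequences show where the genes start and what lies directly upstream. The RefSeq promoter table (build GRCm38.p6, while the count files use mm39) held 8 of the 9 genes, and none was listed for Onecut2. The 250 bases before the start site were searched on both strands for CAGNTG, a form of the E box that basic helix-loop-helix factors such as NEUROD1 bind, and for TAATTA, a core motif of homeodomain factors. CAGNTG was found in Isl1 (1 match) and Pou4f1 (2 matches) and in none of the other 6, and 44.8% of the 32851 promoters of the table hold it. TAATTA was found in none of the 8, against 4.84% of all promoters. The sequences are shown for the 2 genes with a match, for Isl2, which had the greatest step between neurons without and with Stmn2, and for Prdm12, which fell there. Capitals mark CAGNTG matches. No match says only that these letters are not in this window.
Isl1, chr13:116309689-116309938, minus strand: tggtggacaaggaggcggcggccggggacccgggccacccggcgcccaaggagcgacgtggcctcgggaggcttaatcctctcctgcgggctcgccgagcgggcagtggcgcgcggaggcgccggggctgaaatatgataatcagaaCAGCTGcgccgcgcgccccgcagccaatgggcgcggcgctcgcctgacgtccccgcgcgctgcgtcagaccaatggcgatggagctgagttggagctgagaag
Pou4f1, chr14:104468000-104468249, minus strand: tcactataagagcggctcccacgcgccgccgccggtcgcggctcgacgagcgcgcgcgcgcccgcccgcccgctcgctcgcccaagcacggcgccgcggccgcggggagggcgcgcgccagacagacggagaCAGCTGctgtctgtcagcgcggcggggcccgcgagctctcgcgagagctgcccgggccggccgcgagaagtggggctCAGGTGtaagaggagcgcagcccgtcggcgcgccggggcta
Isl2, chr9:55540899-55541148, plus strand: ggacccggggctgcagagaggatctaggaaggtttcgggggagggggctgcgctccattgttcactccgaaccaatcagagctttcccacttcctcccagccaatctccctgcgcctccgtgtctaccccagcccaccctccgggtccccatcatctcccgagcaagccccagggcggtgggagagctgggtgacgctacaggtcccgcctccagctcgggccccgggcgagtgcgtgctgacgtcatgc
Prdm12, chr2:31639787-31640036, plus strand: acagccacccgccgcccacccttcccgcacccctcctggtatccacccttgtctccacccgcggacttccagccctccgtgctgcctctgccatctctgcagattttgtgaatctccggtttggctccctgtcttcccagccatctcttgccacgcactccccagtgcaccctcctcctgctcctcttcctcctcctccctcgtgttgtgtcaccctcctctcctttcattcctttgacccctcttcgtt

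Across the Stmn2 steps the factors fell into 3 kinds of course. Isl1, Shox2 and Onecut1 were already high in neurons without Stmn2, Isl2, Pou4f1, Tlx3 and Onecut2 were low there and much higher in neurons with 3 or more Stmn2 UMIs, and Prdm12 ran the other way. Phox2a was rare at every step. Of the 9 genes, 6 rose and 1 fell between no Stmn2 and 3 or more (edgeR's quasi-likelihood test over 9 sums with the library as a block, Benjamini-Hochberg adjusted p below 0.05). Over all 11505 genes tested, 4073 (35.4%) were called, 18.5% higher and 16.9% lower. The median log2 fold change of the 9 was 0.78, against 0.003 over all genes.

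**Figure D1:**
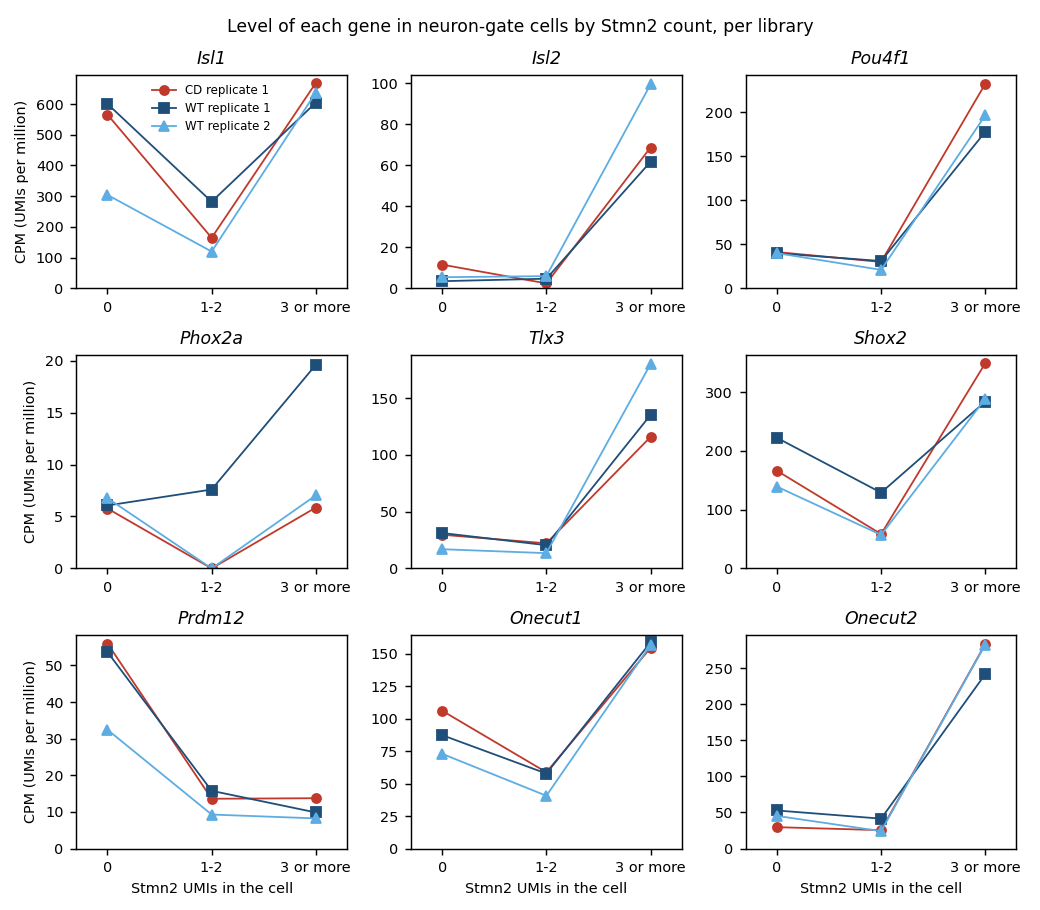
CPM of each gene (y axis, from 0) in neurons with 0, 1-2 and 3 or more Stmn2 UMIs (x axis), 1 line per library. Isl2, Pou4f1, Tlx3 and Onecut2 rise steeply at the last step in each library, Prdm12 is highest without Stmn2, and several genes dip in the middle group, which also holds cells without Neurod1.

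Isl1, a LIM homeodomain factor that is among the first marks of a postmitotic sensory neuron, stood at 566, 601 and 304 CPM without Stmn2. With 3 or more Stmn2 UMIs it stood at 669, 605 and 637 CPM. WT replicate 1 is nearly level between the steps, and WT replicate 2 is the library that is low without Stmn2. The log2 difference was 0.39 (SE 0.19, edgeR adjusted p = 0.131) and did not pass. It was 0.61 without WT replicate 1 (edgeR adjusted p = 0.0070) and 0.04 without WT replicate 2 (edgeR adjusted p = 0.874). In WT replicate 2 the neurons without Stmn2 also held more otic epithelium transcripts (126 CPM summed over the list, against 33.8 and 35.5) and more mesenchyme gate transcripts (312 CPM against 204 and 74.4), and the part of these in the Isl1 value was not tested. Cells that held Isl1 held 8.18, 9.77 and 6.16 UMIs of it without Stmn2 and 16.6, 16.7 and 12.2 with 3 or more, at the differing depths given above.

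Isl2, the second LIM homeodomain factor, stood at 11.5, 3.46 and 5.41 CPM without Stmn2, which is only 14, 4 and 8 UMIs. With 3 or more it stood at 68.6, 61.7 and 99.4 CPM. The groups do not overlap, and the log2 difference of 3.47 (SE 0.26, edgeR adjusted p = 1.7e-06) was the largest among the 9. A UMI of Isl2 was in 6.49%, 4.41% and 6.74% of thinned cells without Stmn2 and in 19.3%, 18.8% and 27.4% of those with 3 or more. Isl1 and Isl2, close relatives in sequence, thus followed different courses, though the difference between the 2 genes was not itself tested.

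Pou4f1 (also called Brn3a), which is needed for the survival and targeting of many sensory neurons, stood at 41.2, 39.8 and 39.9 CPM without Stmn2. With 3 or more it reached 232, 178 and 196 CPM (log2 difference 2.26, SE 0.12, edgeR adjusted p = 1.5e-07). The 3 libraries are almost level at the first step and well apart from the second. The thinned share of cells went from 11.7%, 11.8% and 11.2% to 54.6%, 42.4% and 52.0%.

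Tlx3, a homeobox factor of excitatory sensory relay and visceral neurons, stood at 29.6, 31.2 and 16.9 CPM without Stmn2 and 116, 135 and 180 CPM with 3 or more (log2 difference 2.44, SE 0.25, edgeR adjusted p = 2.0e-05). WT replicate 2 is the lowest library at the first step and the highest at the last. Onecut2, a cut-homeodomain factor of early neurons, went from 29.6, 52.8 and 45.3 CPM to 284, 242 and 283 CPM (2.61, SE 0.18, edgeR adjusted p = 8.8e-07). For both genes every value at the last step lies above every value at the first.

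Shox2, a homeobox factor known from touch-sensing neurons, stood at 166, 222 and 139 CPM without Stmn2 and at 349, 284 and 289 CPM with 3 or more (log2 difference 0.78, SE 0.19, edgeR adjusted p = 0.0069). The groups do not overlap, but the call was lost without CD replicate 1 (0.67, edgeR adjusted p = 0.057), without WT replicate 2 (0.65, edgeR adjusted p = 0.073) and with a stricter gate of at least 4 Neurod1 and Stmn2 UMIs (0.38, edgeR adjusted p = 0.065). Onecut1, the paralog of Onecut2, went from 106, 87.4 and 73.0 CPM to 155, 159 and 157 CPM (0.77, SE 0.12, edgeR adjusted p = 3.8e-04). Its 3 libraries agree closely at the last step, with a mean of 157 ± 2.12 CPM (SD, n = 3).

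Prdm12 was the only one of the 9 to fall. It stood at 56.0, 53.7 and 32.4 CPM without Stmn2 and at 13.7, 9.86 and 8.23 CPM with 3 or more (log2 difference -2.20, SE 0.16, edgeR adjusted p = 1.6e-06). The groups do not overlap. A UMI was in 28.6%, 25.0% and 18.0% of thinned neurons without Stmn2 and in 5.60%, 3.98% and 4.38% of those with 3 or more. Phox2a, the visceral factor, was at 5.76, 6.06 and 6.76 CPM without Stmn2 and at 5.85, 19.6 and 7.03 CPM with 3 or more. WT replicate 1 alone is high, the groups overlap, and the difference did not pass (0.60, SE 0.62, edgeR adjusted p = 0.488).

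The bins were set on the raw Stmn2 count, so shallow cells fall into the first more easily. In one alternative each cell was thinned to 5000 UMIs before summing but kept its bin from the raw count. That fit evens the depth of the cells and does not test which bin a shallow cell belongs to. In it Isl2, Pou4f1, Tlx3, Shox2, Onecut1 and Onecut2 still rose and Prdm12 still fell. Phox2a was too scarce to be tested, and the number of genes called among all dropped to 1780. Neurod1 was at log2 -0.37 in the same contrast. The gate requires Neurod1 of the cells without Stmn2 and not of those they are compared with. That value is thus shaped by the gate and does not test a change in Neurod1.

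The middle group, with 1 to 2 Stmn2 UMIs, was a mixture. Of its cells, 43, 32 and 116 had no Neurod1 UMI and so were admitted on 2 Stmn2 UMIs alone. In those cells Isl1 stood at 12.1, 4.78 and 6.35 CPM, against 242, 547 and 197 CPM in the cells with Neurod1. The cells without Neurod1 held mesenchyme gate markers (Prrx1, Twist1, Pdgfra) at 562, 307 and 661 CPM, with a UMI in 67.4%, 34.4% and 81.0% of them. They held endothelium gate markers (Pecam1, Cdh5, Kdr) at 274, 689 and 317 CPM. Shox2 stood at 4.03, 1.19 and 3.42 CPM there and Pou4f1 at 0, 1.19 and 4.88 CPM, from 0, 1 and 10 UMIs. The absent CD value allows a Pou4f1 UMI in up to 6.98% of such cells.

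As first gated, 5 of the 9 genes fell from no Stmn2 to 1-2 UMIs: Isl1 (log2 -1.45), Prdm12 (-1.93), Shox2 (-1.23), Onecut1 (-0.82) and Pou4f1 (-0.66; edgeR adjusted p = 0.016). Among all genes, 14.5% were called in that contrast, 6.88% higher and 7.65% lower. When a Neurod1 UMI was required, none of the 9 passed, and 5 of 10505 genes were called (0.0476%, edgeR). The values were then -0.64 for Isl1, -0.41 for Shox2, -0.04 for Onecut1 and -1.29 for Prdm12 (edgeR adjusted p = 0.073), and Pou4f1 was at 0.08. With Neurod1 required, the fall of these 5 genes in the middle group thus no longer passed.

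From 1-2 to 3 or more Stmn2 UMIs, 8 of the 9 genes rose and Prdm12 did not pass (log2 -0.27, edgeR adjusted p = 0.221). Here 46% of all genes were called (edgeR), 23.6% higher. With Neurod1 required, 7 rose and Prdm12 fell (-0.66, edgeR adjusted p = 0.018), and 39% of genes were called. The steps with Neurod1 required were 3.72 for Isl2, 2.71 for Onecut2, 2.47 for Tlx3, 2.43 for Pou4f1, 1.44 for Shox2, 1.30 for Isl1 and 1.06 for Onecut1. With a gate of at least 4 Neurod1 and Stmn2 UMIs Onecut1 no longer rose at this step (-0.10). With Neurod1 required Phox2a was at 1.95 (edgeR adjusted p = 0.066), and it had no UMI in the CD and WT replicate 2 cells of the middle group. The 0 of 138 and 0 of 319 cells allow shares of up to 2.17% and 0.940%. The 7 calls of the contrast between no Stmn2 and 3 or more all stood with Neurod1 required, and Isl1 then passed too (0.65, edgeR adjusted p = 0.048), with 34.3% of all genes called.

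**Figure D2:**
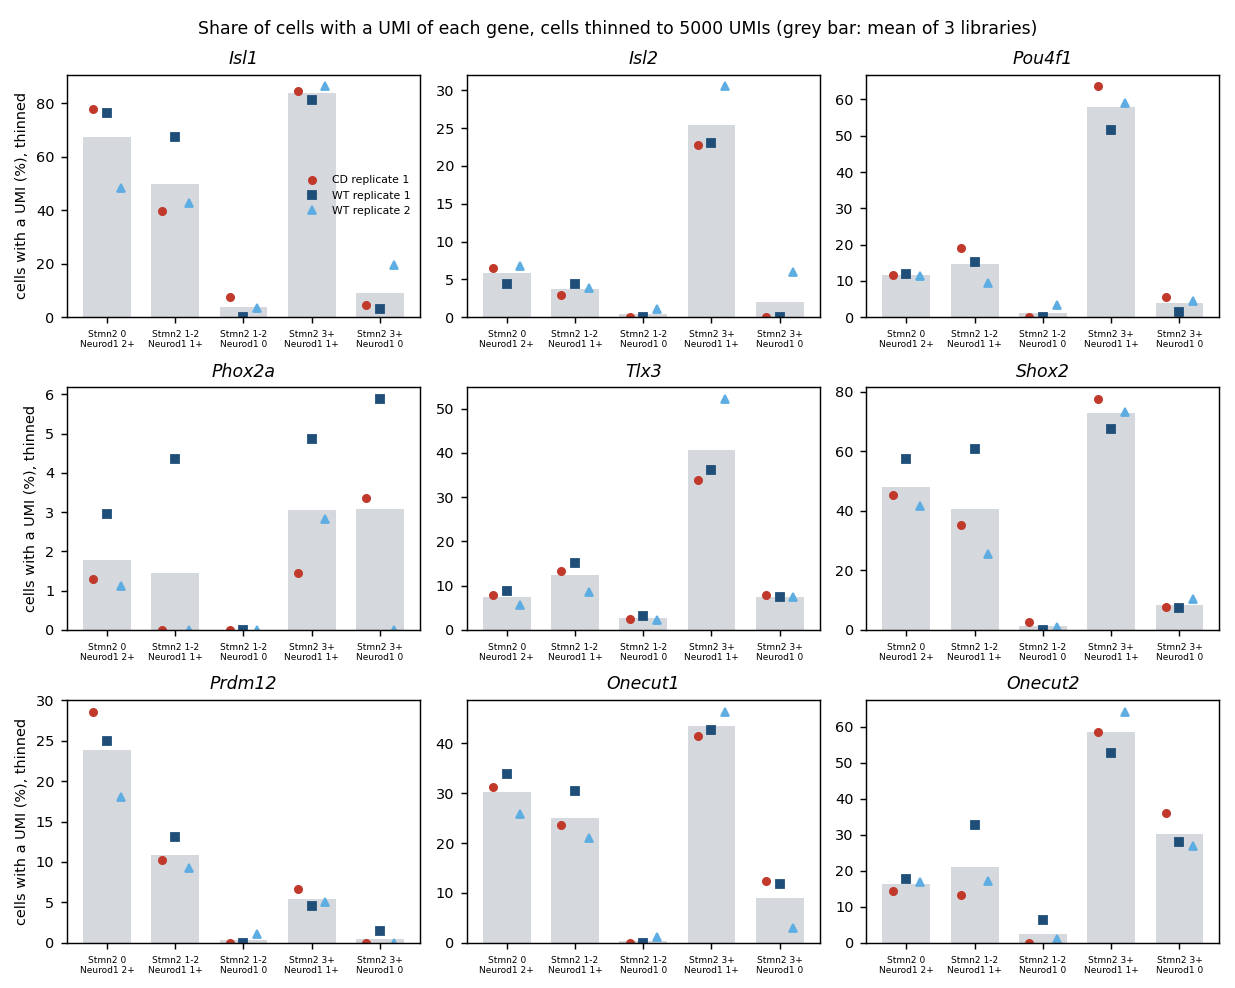
Share of cells with a UMI of each gene (y axis, percent, thinned to 5000 UMIs) in 5 groups of neuron-gate cells set by Stmn2 and Neurod1 UMIs (x axis). Points are libraries and grey bars are the mean of the 3. With 1-2 Stmn2 UMIs and no Neurod1 every gene lies near 0, with a mean of at most 3.70% (Isl1). In cells with 3 or more Stmn2 UMIs and no Neurod1, Onecut2 keeps 26.9% to 36.0%. There the means are 8.95% for Isl1, 8.56% for Shox2, 9.04% for Onecut1 and 7.56% for Tlx3, and at most 3.86% (Pou4f1) for the rest.

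Cells with 3 or more Stmn2 UMIs and no Neurod1 numbered 108, 84 and 129 and held less of most of the factors. Isl1 stood at 21.6, 14.2 and 83.8 CPM in them, against 782, 733 and 736 CPM with Neurod1. Onecut2 stood at 157, 93.8 and 63.1 CPM, against 306, 274 and 322 CPM. Its share of thinned cells was 36.0%, 27.9% and 26.9%, while that of Prdm12 was 0%, 1.47% and 0%. These cells held the hindbrain neuron list (Lhx2, Barhl1 and others) at 508, 282 and 130 CPM and endothelium gate markers at 550, 828 and 606 CPM. The part of either in the Onecut2 value was not tested.

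Set against otic cells of the same libraries, all 9 genes were higher in neurons (edgeR over 6 sums with the library as a block). Of 16189 genes tested, 62.2% were called, 30.4% higher, so a call alone says little, and these genes were picked as neuronal. The log2 differences were 5.07 for Tlx3, 4.69 for Shox2, 4.63 for Onecut1, 4.59 for Pou4f1, 4.24 for Onecut2, 2.89 for Phox2a, 2.87 for Isl1, 2.62 for Isl2 and 0.67 for Prdm12 (edgeR adjusted p from 7.8e-07 for Onecut1 to 0.0044 for Prdm12). The median was 4.24, against -0.02 over all genes. Each of the 9 kept its call in every alternative that was run.

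**Figure D3:**
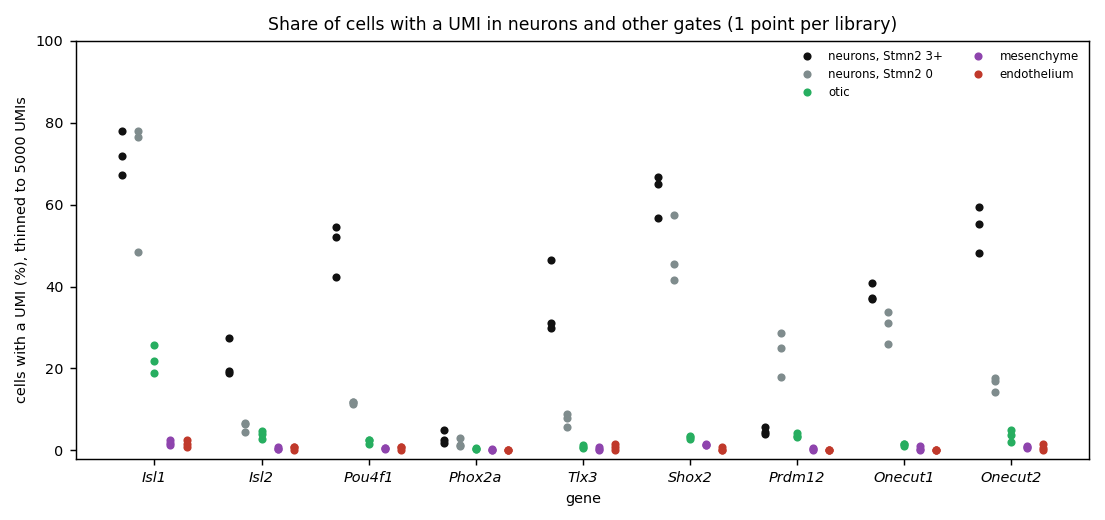
Share of cells with a UMI (y axis, percent, thinned to 5000 UMIs) of each gene (x axis) in neurons and in 3 other gates, 1 point per library. Isl1 in otic cells stands above the other gates outside neurons.

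Isl1 was not restricted to neurons. It stood at 94.0, 59.5 and 79.0 CPM in otic cells, and a UMI was in 25.7%, 19.0% and 21.9% of them (45.0%, 38.6% and 40.7% unthinned). In endothelium, which should lack it, the thinned shares were 0.714%, 2.41% and 1.64%, at median depths of 20685, 20477 and 16060 UMIs. Most otic cells with Isl1 had no Neurod1 UMI. After thinning, Neurod1 was in 14.1%, 18.2% and 17.2% of otic cells with Isl1 and in 4.63%, 3.78% and 7.18% of those without.

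The other factors were scarcer in otic cells, and they differed in how often Neurod1 was found with them. The otic shares include cells called as doublets. Without those cells the otic gate held 2638, 2427 and 3819 cells, down from 2778, 2537 and 4083. The part of doublets in the shares was not tested. Onecut1 was in 1.54%, 1.15% and 1.59% of thinned otic cells. Of those few cells, 76.2%, 75.9% and 60.3% also had a Neurod1 UMI, against 5.98%, 5.71% and 8.54% of the rest. For Tlx3 the shares with Neurod1 were 56.5%, 66.7% and 51.8%, and Stmn2 was in 60.9%, 66.7% and 53.6% of the same cells. In otic cells with Pou4f1 or Shox2, Neurod1 was in 43.2% to 53.8%. With Onecut2 it was in 25.4%, 28.8% and 33.1%, against 6.12%, 6.04% and 8.47% of those without. Most otic cells with Isl2 had no Neurod1 UMI, which was in 11.1%, 11.4% and 11.7% of them, against 6.89%, 6.38% and 9.25% of the rest. Phox2a was in only 10, 17 and 12 otic cells. Prdm12 parted the 2 neuronal transcripts. Neurod1 was in 50.5%, 38.9% and 42.4% of otic cells with Prdm12, but Stmn2 was in 8.25%, 10.2% and 10.6%, against 5.57%, 3.15% and 8.85% of otic cells without Prdm12. Most otic cells lacked Stmn2 whether or not they held Prdm12, and the Stmn2 share was somewhat higher with Prdm12 in each library.

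Prdm12 was also found outside both neurons and otic cells. In 129, 195 and 130 cells with at least 2 UMIs of Sox10 and Foxd3 together and none of Neurod1, Stmn2 or Epcam, a set added after seeing the data, Prdm12 stood at 45.1, 43.3 and 8.82 CPM. A UMI was in 14.9%, 16.7% and 5.74% of those cells after thinning, while the other 8 factors were in at most 6.56% in any library. WT replicate 2 is low. Endothelium held no Prdm12 UMI after thinning, and Isl2, Pou4f1, Phox2a, Tlx3, Shox2, Onecut1 and Onecut2 were in at most 1.43% of its thinned cells in any library.

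Single neurons carried several of the factors at once. With 3 or more Stmn2 UMIs, a thinned cell held 3.42, 3.11 and 3.76 of the 9 genes on average, and 69.9%, 67.1% and 75.8% of cells held at least 3. Without Stmn2 the means were 2.25, 2.38 and 1.75, and in otic cells 0.466, 0.348 and 0.429. With a Neurod1 UMI as well as 3 or more of Stmn2, the means rose to 3.91, 3.64 and 4.20, and 3.73%, 2.59% and 2.62% of cells held none of the 9. All 9 together were in no thinned cell. Isl1 and Pou4f1, both widely used marks of sensory neurons, were both in 51.1%, 37.1% and 47.2% of cells with 3 or more Stmn2 UMIs, a mean of 45.2% ± 7.23 (SD, n = 3), and the unthinned shares were 63.1%, 56.7% and 63.4%. The share depends on depth and rose to 62.0% at 10000 UMIs a cell.

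Which factors went together was read in cells with 3 or more Stmn2 UMIs and at least 1 of Neurod1. Such shares describe 482, 309 and 458 thinned cells, and no test was made over cells. In 16 of the 36 pairs the share of one gene was higher in cells with the other than in cells without it in all 3 libraries. In 7 it was lower in all 3, and 13 had no single direction. In 10 pairs the share of the gene later in the alphabet was at least 10 percentage points higher with the earlier one in every library. Pairs of other genes were not counted in this way, so whether these counts are unusual among neuronal genes was not tested. The groups described below were read from the same shares.

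**Figure D4:**
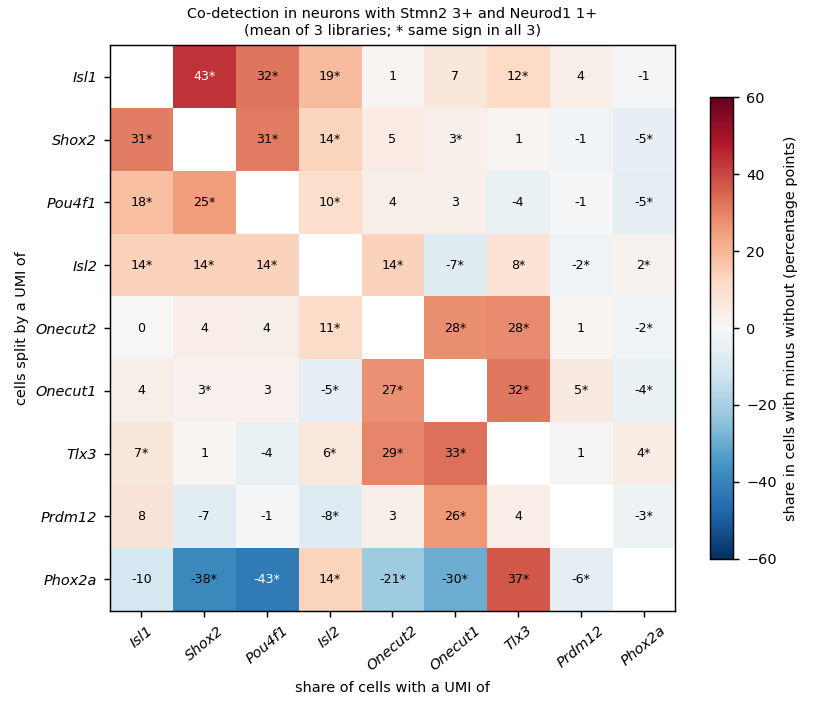
For each pair, the share of cells with the column gene among cells with a UMI of the row gene, minus that among cells without (percentage points, mean of 3 libraries, thinned cells with 3 or more Stmn2 and at least 1 Neurod1 UMI). Isl1, Shox2 and Pou4f1 form one block of high values, Onecut1, Onecut2 and Tlx3 another, and the Phox2a row rests on 7 to 15 cells a library.

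The first group joined Isl1, Shox2 and Pou4f1. Shox2 was in 85.3%, 78.9% and 76.0% of cells with Isl1 and in 36.0%, 19.0% and 54.8% of cells without. Pou4f1 was in 71.5%, 55.8% and 62.1% of cells with Isl1, against 21.3%, 32.8% and 38.7% without. Shox2 was in 87.9%, 79.9% and 82.2% of cells with Pou4f1, against 59.4%, 54.7% and 60.1% without. The direction was the same in each library, and for Shox2 with Isl1 the gap was narrowest in WT replicate 2. Isl2 was tied to these genes by smaller gaps, with Isl1 in 96.4%, 93.0% and 93.6% of its cells against 80.9%, 77.7% and 83.3% of the rest. Shox2 was in 89.1%, 77.5% and 82.9% of cells with Isl2, against 74.2%, 64.7% and 68.9%, and Pou4f1 in 80.0%, 63.4% and 62.1%, against 58.9%, 47.9% and 57.5%. The mean gaps of 13.6 to 13.9 points for these 3 genes were close to the 13.7 points for Onecut2, a gene of the other group.

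The second group joined Onecut1, Onecut2 and Tlx3. Onecut2 was in 75.0%, 68.2% and 78.8% of cells with Onecut1 and in 47.2%, 41.2% and 51.6% of those without. Tlx3 was in 52.0%, 50.0% and 73.6% of cells with Onecut1, against 20.9%, 26.0% and 33.7%. Tlx3 was in 45.9%, 49.7% and 61.9% of cells with Onecut2, against 16.6%, 21.2% and 34.8%. The mean gaps were 27.3 ± 0.470 points for Onecut1 and Onecut2, 31.6 ± 7.93 for Onecut1 and Tlx3, and 28.3 ± 1.11 for Onecut2 and Tlx3 (SD, n = 3).

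Pairs across these groups were less uniform. Onecut2 was in 69.1%, 60.6% and 76.4% of cells with Isl2, against 55.6%, 50.4% and 58.8% of those without. Tlx3 was in 35.8%, 31.4% and 48.9% of cells with Pou4f1 and in 30.3%, 41.3% and 56.9% of those without, so the libraries differ in direction. Onecut1 with Isl1 also had no single direction, at 44.2%, 42.6% and 46.7% against 26.7%, 43.1% and 43.5%. Onecut1 was less frequent in cells with Isl2 in each library, at 32.7%, 38.0% and 43.6%, against 44.1%, 44.1% and 47.5% of the rest. Prdm12 cells numbered only 32, 14 and 23. Onecut1 was in 68.8%, 78.6% and 56.5% of them, against 39.6%, 41.0% and 45.7% of the rest.

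Phox2a marked a small set of cells with a different mixture. There were 7, 15 and 13 of them. Tlx3 was in 71.4%, 66.7% and 92.3% of them, against 33.3%, 34.7% and 51.0% of the other cells. Pou4f1 was in 28.6%, 6.67% and 15.4%, against 64.2%, 53.7% and 60.2%, and Shox2 in 28.6%, 46.7% and 30.8%, against 78.3%, 68.7% and 74.4%. Prdm12 was in none of these cells. The shares rest on few cells, and the 95% interval of the Tlx3 share among all 19 WT replicate 1 cells with Phox2a and 3 or more Stmn2 UMIs was 48.8% to 90.85% (Clopper-Pearson).

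In neurons without Stmn2, Isl1 went with Shox2 and Pou4f1 in each library, but also with Onecut1 and Prdm12. The first group was thus not set apart there, and the second was mixed. Cells without Isl1 include those with none of the 9 genes, which were 6 of 77, 9 of 68 and 29 of 89 thinned cells. Among 60, 52 and 43 thinned cells with Isl1, Shox2 was in 55.0%, 73.1% and 62.8%, against 11.8%, 6.25% and 21.7% of cells without Isl1. Onecut1, which had no single direction with Isl1 at the later step, was in 35.0%, 38.5% and 41.9%, against 17.6%, 18.8% and 10.9%. Pou4f1 was in 13.3%, 15.4% and 18.6%, against 5.88%, 0% and 4.35%. Few cells held Pou4f1 at this step. In CD they were 9, of which 8 also had Isl1, so the direction there rests on very few cells. Prdm12 was in 31.7%, 28.8% and 30.2% of cells with Isl1, against 17.6%, 12.5% and 6.52%. Of the cells with Prdm12, 86.4%, 88.2% and 81.2% also had Isl1. In the second group, Onecut2 was in 25.0%, 26.1% and 34.8% of cells with Onecut1, against 9.43%, 13.3% and 10.6% of the rest. Tlx3 was in 8.33%, 21.7% and 13.0% of cells with Onecut1, against 7.55%, 2.22% and 3.03%, so the CD shares are nearly level. Only 6, 6 and 5 of these cells had Tlx3, and Onecut2 was in 33.3%, 16.7% and 60% of them, against 12.7%, 17.7% and 14.3%, with no single direction.

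The genes whose detection followed each factor most closely were taken from all genes in thinned cells with 3 or more Stmn2 UMIs, by the lowest of the 3 library differences in share between cells with and without the factor. This set includes cells without Neurod1, a gene that the neuron gate uses. They were 89 of 571, 68 of 377 and 67 of 525 thinned cells. Only 4, 2 and 13 of them held Isl1, so they fall mostly among the cells without it. Their part in the genes named here was not tested. For Isl1 they were Neurod1, Cadm1, Nefm, Shox2 and Ppp1r14a, and Neurod1 was in 97.1%, 95.7% and 91.9% of cells with Isl1, against 28.8%, 33.9% and 43.1%. For Pou4f1 they were Shox2, Ppp1r14a, Pde4dip, Isl1 and Cadm1, and for Shox2 they were Pou4f1, Cadm1, Neurod1, Ppp1r14a and Mfap4. Onecut1 led with Onecut2, Tbx3, Tlx3, Phlda1 and Nefl. Tbx3 was in 46.9%, 45.0% and 43.9% of cells with Onecut1 and in 7.78%, 8.86% and 16.4% of those without. Onecut2 led with Nefl, Ina, Onecut1, Tlx3 and Stmn3, and Tlx3 with Onecut2, Nefl, Onecut1, Nefm and Tbx3. For Isl2 the 5 genes held none of the factors: Ttll7, Alcam, Sncg, Gng3 and Stmn4. Fewer than 20 cells in a library held Phox2a or Prdm12, so none was named for them.

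Other neuronal genes in the same contrast between no Stmn2 and 3 or more set the scale (edgeR adjusted p below 0.05). All 11 pan-neuronal genes with UMIs at both steps rose, among them Nefl (4.39), Gap43 (3.68), Nefm (3.65) and Tubb3 (2.47). Pou4f1, Tlx3, Onecut2 and Isl2 thus rose by amounts within the range of these structural genes. Of 12 genes of the proneural cascade, which drives neuroblast birth, 5 rose and 5 fell. Hes6 fell (-0.85), Nhlh1 and Nhlh2 rose (2.38 and 0.57) and Insm1 did not pass (-0.13, edgeR adjusted p = 0.629). Neurog1, named after its values were seen, went from 80.7, 55.4 and 37.2 CPM to 13.2, 8.65 and 7.73 CPM (-2.58, edgeR adjusted p = 8.3e-06), a fall of similar size to that of Prdm12.

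Among genes known from the otic ganglion, Tbx3 rose (1.68), and Eya1 and Eya2 fell (-0.46 and -0.65). Hmx1, a gene of epibranchial neurons, rose by 4.24. Tlx1, the relative of Tlx3, went from 2, 0 and 0 UMIs to 316, 226 and 379. It entered the test only through cells with Stmn2, and its fitted change is no bound. In the list of neurotrophin and GDNF receptors, 3 of 5 tested rose, including Ntrk2 (3.01), Ntrk3 (3.95) and Ngfr (2.35), and 1 fell, while Gfra1 was at -0.05 (edgeR adjusted p = 0.803).

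LIM factors act through partner proteins. None of the 6 tested genes of LIM cofactors and partners passed. Ldb1, the adaptor that pairs LIM homeodomain proteins, was at 0.16, Ldb2 at -0.15, Lmo1 at 0.21 and Lmo4 at -0.24 (edgeR adjusted p from 0.129 for Lmo4 to 0.703 for Ldb2). Among the relatives of the POU, ONECUT and Prdm factors, 2 of 6 tested rose, leaving aside Onecut3. Pou3f2 rose by 1.02 and Pou2f2 by 2.25, and Pou3f1 was at 0.47 (edgeR adjusted p = 0.098). Onecut3 had no UMI without Stmn2 and stood at 7.21, 7.69 and 10.2 CPM with 3 or more, so it entered the test only through the later step, and its fitted change is no bound. The 3 hindbrain genes that could be tested, Lhx2, Lhx9 and Barhl1, also rose (1.95 to 2.94) (edgeR). Without cells that held hindbrain markers the 7 calls among the 9 factors stood, with 32.5% of all genes called.

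The genotype comparison asks whether these factors differ between embryos with the Sox9 Y440X allele and wild type. None of the 9 genes passed between the CD library and the 2 WT libraries in any group of cells (Phox2a was too scarce to be tested in neurons with fewer than 3 Stmn2 UMIs). In neurons 0 of 14750 genes passed (0%, edgeR). In neurons without Stmn2 20 of 9336 passed (0.214%), in those with 1-2 UMIs 0 of 11630 (0%), in those with 3 or more 16 of 13885 (0.115%) and in otic cells 16 of 17161 (0.0932%). The test has 1 residual degree of freedom, the lone CD library is assumed to vary like WT, and no permutation of 1 against 2 libraries can give a p below 0.333. Across neurons 1 of the 9 genes was below an unadjusted p of 0.05 in edgeR, as were 265 of all 14750 genes tested. DESeq2 called 3 genes of all.

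**Figure D5:**
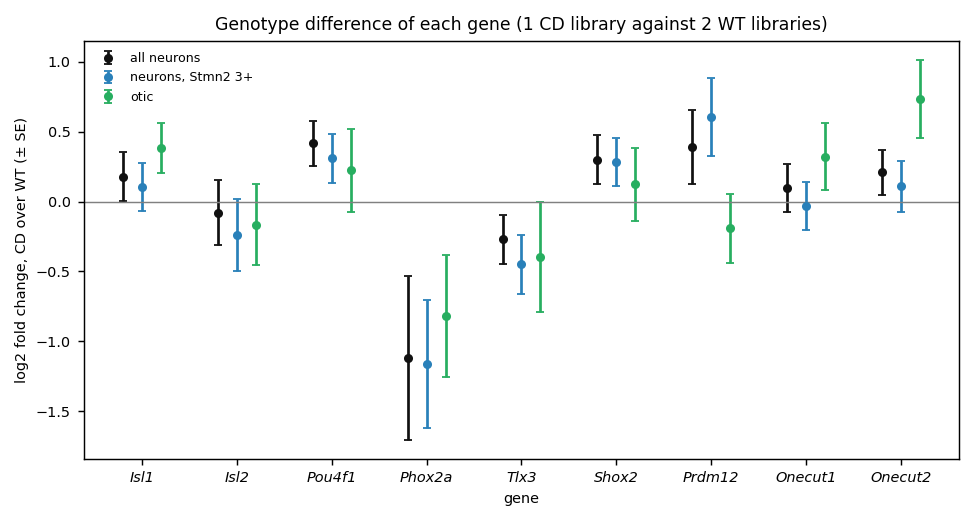
Log2 fold change of CD over WT for each gene (y axis, bars are SE from edgeR) in all neurons, neurons with 3 or more Stmn2 UMIs and otic cells. None passes the threshold over all genes, and in each of these 3 groups Phox2a has the largest distance from 0, with WT replicate 1 the highest of the neuron values.

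In all neurons, Pou4f1 stood at 180, 141 and 129 CPM, highest in the CD library (log2 fold change 0.42, SE 0.16, unadjusted p = 0.029 and adjusted p = 1.00 in edgeR). Isl1 stood at 568, 555 and 449 CPM (0.18, SE 0.18) and Shox2 at 282, 254 and 204 CPM (0.30, SE 0.17). In these genes the CD value is above both WT values, but the gap between the WT libraries is larger than the gap from CD to the nearer of them for Isl1 and Shox2. Tlx3 was lowest in CD, at 91.9, 107 and 114 CPM (-0.27, SE 0.18). Prdm12 (0.39, SE 0.26), Onecut2 (0.21, SE 0.16), Onecut1 (0.09, SE 0.17) and Isl2 (-0.08, SE 0.23) did not pass either.

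Phox2a had the value furthest from 0 in all neurons and in neurons with 3 or more Stmn2 UMIs, and 1 library carried it. It stood at 4.77, 16.4 and 4.85 CPM in all neurons (-1.12, SE 0.58), so CD and WT replicate 2 are level and WT replicate 1 is high. Without WT replicate 1 the value was -0.06. In neurons with 3 or more Stmn2 UMIs the Phox2a value of -1.16 (SE 0.46) passed in 3 alternatives: -1.41 with Neurod1 required (edgeR adjusted p = 0.018), -1.41 without cells holding hindbrain markers (edgeR adjusted p = 0.0051) and -1.36 without cells holding mesenchyme markers (edgeR adjusted p = 0.016). Of all genes, 0.464%, 0.682% and 0.748% were called in these alternatives. In all neurons it passed without cells holding mesenchyme markers (-1.27, edgeR adjusted p = 0.037, with 0.698% of all genes called). Without WT replicate 1 the value in neurons with 3 or more Stmn2 UMIs was -0.28, with no test. In the earlier steps Isl2 was furthest from 0, at 1.36 (SE 0.98) without Stmn2, from 14, 4 and 8 UMIs, and at -1.18 (SE 0.76) with 1-2, from 7, 8 and 30 UMIs, and neither passed (adjusted p = 1.00 for both in edgeR).

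Hindbrain markers differed between the libraries in the same neurons. The 8 hindbrain genes that could be tested in all neurons were each higher in CD than in the WT fit, with a median log2 fold change of 1.12 against -0.006 over all genes, and none passed. The list summed to 113, 86.8 and 28.4 CPM, so WT replicate 1 lies nearer to CD than to WT replicate 2, and the part of these cells in the genotype values was not tested beyond leaving them out. In neurons with 3 or more Stmn2 UMIs that median was 1.17. Without the cells holding hindbrain markers, none of the 9 factors but Phox2a passed. In otic cells Isl1 was higher in CD than in both WT libraries (0.39, SE 0.18), as was Onecut2 at 16.2, 6.93 and 11.7 CPM (0.74, SE 0.28, unadjusted p = 0.026), with adjusted p = 1.00 for both in edgeR.

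The rise from no Stmn2 to 3 or more was also compared between the genotypes as an interaction. One gene of 11505 passed (0.00869%, edgeR), and it was none of the 9. Isl2 had the largest value among them, -1.63 (SE 0.47, unadjusted p = 0.0067 and adjusted p = 1.00 in edgeR), and its first step rests on 14, 4 and 8 UMIs. Phox2a was at -0.89 (SE 1.40), Onecut2 at 0.81 (SE 0.40), Tlx3 at -0.81 (SE 0.52), Onecut1 at -0.46 (SE 0.23), Isl1 at -0.34 (SE 0.42), Shox2 at 0.33 (SE 0.38), Pou4f1 at 0.24 (SE 0.30) and Prdm12 at 0.17 (SE 0.35). These errors leave room for sizeable differences that 3 libraries could not show.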

How the data were processed

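The authors deposited UMI counts per gene and cell barcode for 3 libraries (Chromium 3' v3.1), made with Cell Ranger 6.0 on mm39, per the submitters' processing notes. The filtered matrices were used as deposited. Cells passed with 1000 or more genes and no more than 10% of UMIs from mitochondrial genes, were gated on the counts of the genes named in the report, and were summed per library. The 1 CD and 2 WT sums, or sums per Stmn2 step or gate with the library as a block, were tested with edgeR 4.0.16 (R 4.3.3; quasi-likelihood, TMM, filterByExpr, Benjamini-Hochberg over all genes tested, threshold 0.05), after a check on simulated counts. SE is the log2 fold change divided by the root of F. DESeq2 1.42.0, other cell, depth, doublet and marker filters, and leaving out each library were tried as alternatives, and 2 of these (Neurod1 required, mesenchyme marker cells left out) were chosen after seeing the data. Doublets were called with Scrublet in scanpy 1.11.5 (3.28%, 2.83% and 3.87% of cells in CD replicate 1, WT replicate 1 and WT replicate 2) and kept unless stated.

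The 9 genes and the lists were chosen with earlier results of these data known. All 9 are named, with up to 4 genes of each list, those of the largest count in the neuron gate, and up to 5 genes whose detection followed each factor. Some listed genes are not reported here. Drgx, a listed gene, was not found among the feature names. Nothing in the labels states that the WT pools were independent, and the p-values therefore rest on library spread that may be technical. Cells with fewer than 5000 UMIs were left out of thinned shares (121, 86 and 261 neurons).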

Additional observations from a re-analysis of the deposited data

Results flagged for a closer look

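The change from no Stmn2 to 3 or more Stmn2 UMIs differed between the genotypes for 1 gene of 11505, Sst, which encodes the neuropeptide somatostatin and is not one of the 9 factors. Its interaction was -7.52 on the log2 scale (SE 0.64, edgeR adjusted p = 0.0109). Sst stood at 26.3, 0.865 and 0.676 CPM without Stmn2 (CD replicate 1, WT replicate 1, WT replicate 2) and at 18.1, 117 and 82.8 CPM with 3 or more. The CD value without Stmn2 is 32 UMIs from 2 cells, and each WT value there is 1 UMI. The fitted size thus rests on very few UMIs at the first step and is no bound. With cells thinned to 5000 UMIs, 5 genes were called and Sst was not among them. The other alternatives in which the interaction was fitted kept the Sst call.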

How the results depend on the processing

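Over 72 results for single genes, 806 values were computed under alternatives, and 751 kept their direction and their side of the threshold, while 19 lost a call, 13 gained one, 16 turned direction and 7 moved in size. The 9 calls of neurons against otic cells stood in every alternative run.

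Counts of genes called for CD against WT moved with most settings. In all neurons (0) they were 3 with DESeq2, 74 with no gene filter, 5 with looser cell filters, 13 without doublets, 40 with a gate of 4 UMIs and 98 without mesenchyme marker cells. Without Stmn2 (20) they were 1 with DESeq2, 1 with looser cell filters, 8 without doublets, 1 thinned and 45 without hindbrain marker cells. With 1-2 Stmn2 UMIs (0) they were 1 with DESeq2, 47 with no gene filter, 2 with looser cell filters, 1 without doublets, 1 thinned, 14 without hindbrain marker cells and 30 with a gate of 4. With 3 or more (16) they were 8 with DESeq2, 106 with no gene filter, 28 with looser cell filters, 93 without hindbrain marker cells, 33 with a gate of 4, 62 with Neurod1 required and 100 without mesenchyme marker cells. In otic cells (16) they were 61 with DESeq2, 155 with no gene filter, 8 with looser cell filters and 4 without doublets. The interaction (1) gave 34 with no gene filter, 5 thinned, 2 without hindbrain marker cells and 3 with a gate of 4.

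For 3 or more Stmn2 UMIs against none (4073), thinning gave 1780 and leaving out 1 library 2700 to 3363. For 1-2 against none (1672), the counts were 458 thinned, 16 with a gate of 4, 5 with Neurod1 required, 921 with no library block and 433 to 1247 with 1 library left out. For 3 or more against 1-2 (5294), they were 2146 thinned, 2696 with a gate of 4 and 3351 to 5183 with 1 library left out. Thinned and left-out fits hold fewer UMIs or samples, and the other causes were not tested. Isl1 and Pou4f1 together (45.2%) were in 61.1% of unthinned cells, 26.1% at 2500 UMIs, 62.0% at 10000 UMIs and 53.1% with Neurod1 required.

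Directions turned for called values of Pou4f1, Shox2 and Onecut1, and otherwise for values that had not passed. Isl1 for 3 or more Stmn2 UMIs against none was -0.0040 with a gate of 4. For 1-2 against none, a gate of 4 gave 0.32 for Isl2, 0.54 for Pou4f1, 0.86 for Tlx3, 0.062 for Shox2, 0.50 for Onecut1 and 0.60 for Onecut2. There Isl2 ranged from -1.26 to 0.18 with 1 library left out (0.18 without CD replicate 1), Tlx3 was 0.03 without mesenchyme marker cells, and with Neurod1 required Pou4f1 was 0.083, Tlx3 0.19 and Onecut2 0.087. Onecut1 for 3 or more against 1-2 was -0.10 with a gate of 4. For CD against WT, Isl2 in neurons was 0.0011 and Onecut1 with 3 or more Stmn2 UMIs 0.028 without mesenchyme marker cells, and Prdm12 in otic cells was 0.032 thinned. No paired analysis was possible because CD and WT share only replicate number 1. With a WT library left out, CD against WT is a value with no test, and the interaction could not be fitted.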
